A study of Mus musculus with 8 samples.

Results

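The loci examined here are those of 10 mouse genes of the fibroblast growth factor (FGF) and ERK pathway, out of 21938 protein-coding genes. They are the ligand genes Fgf4, Fgf5 and Fgf2, the receptor genes Fgfr1 and Fgfr2, the feedback inhibitor genes Spry2, Spry4 and Dusp6, and the transcription factor genes Etv4 and Etv5. The genes were chosen by name for their place in the pathway. For each one, all ATAC-seq peaks were collected that overlapped the gene body or the 50 kb to each side of it, which is called its window below.

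ATAC-seq uses a transposase to cut and tag open DNA, so that a peak marks a stretch of accessible chromatin. The 8 libraries came from 4 groups of 2 libraries each. The starting cells were mouse embryonic fibroblasts (MEFs), the same kind of cells taken 5 and 10 days into reprogramming with OSKM formed the next groups, and embryonic stem cells (ESCs) formed the last. OSKM stands for Oct4, Sox2, Klf4 and c-Myc, delivered by pMXs retroviruses, with a FLAG vector as the control for overexpression, and cells were reprogrammed in medium for ESCs that contained vitamin C. All groups were wild type for Jmjd3. The labels give the strain of the MEFs, the OSKM cells and ESC replicate 2 as C57BL/6J-OG2, which carries a GFP reporter driven by Oct4 sequence, and that of ESC replicate 1 as the parent C57BL/6J strain. According to the labels, ESCs grew on feeder fibroblasts in serum with LIF, whereas the methods place the ESCs used for ATAC-seq on gelatin in 2i/L. That medium holds PD0325901, an inhibitor of MEK, the kinase that activates ERK. Cell type and culture medium therefore cannot be told apart in any comparison of the ESC list with the others, and the inhibitor acts on the pathway examined here. The methods list neither LIF nor vitamin C in the medium of MEFs, so medium also differs between MEFs and the OSKM days. Its part there cannot be told apart from that of reprogramming.

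FGF ligands bind receptor tyrosine kinases on the cell surface, and the receptors pass the signal through RAS, RAF and MEK to ERK. ERK in turn switches on target genes, among which are inhibitors that feed back on the pathway. In mouse ESCs, FGF4 made by the cells themselves drives ERK and readies them to leave the pluripotent state, while in fibroblasts FGF2 and the same cascade promote growth.

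Each group was represented by 1 peak list, so no spread between libraries could be computed and no difference below was tested. The lists give no read counts, and the depth is unknown. The MEF list held 56514 peaks, the day 5 list 36219, the day 10 list 35226 and the ESC list 48486, and the median numbers of peaks per window over all protein-coding genes were 5, 3, 3 and 4. As a check of the labels, the windows of 7 ESC marker genes held 17, 16, 18 and 62 peaks in the MEF, day 5, day 10 and ESC lists. Those of 7 fibroblast marker genes held 56, 29, 30 and 22 peaks in the same order, with more peaks in ESCs than in MEFs for Pdgfra alone (2, 1, 2 and 5).

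The genome annotation mattered most for Fgfr2, and the counts of Fgfr1 also depended on it to a lesser degree, as given below. The GENCODE record of Fgfr2 spans 2.96 Mb because of a single long transcript, and its window held 105, 67, 64 and 77 peaks in the MEF, day 5, day 10 and ESC lists. The RefSeq record spans 104 kb and gave 14, 4, 7 and 4 peaks. The RefSeq record was used for Fgfr2 in all that follows, and the GENCODE record for the other 9 genes. The 10 windows then held 68, 37, 43 and 54 peaks in the MEF, day 5, day 10 and ESC lists.

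In 4 of the 10 windows (Fgf4, Spry2, Spry4 and Etv5) the ESC list held more peaks than the MEF list, against 35.6% of all protein-coding genes. In the other 6 (Fgf5, Fgf2, Fgfr1, Fgfr2, Dusp6 and Etv4) it held fewer, against 42.2% of all genes. With every list cut to its 35226 highest-scoring peaks, Spry4 moved to the other side (3 peaks in MEFs and 1 in ESCs) and Fgfr1 became even (5 and 5), while the other 8 genes kept their direction. Ligand, feedback inhibitor and transcription factor genes were each found on both sides, and both receptor genes were on the MEF side. At day 5, 8 of the 10 windows had fewer peaks than in MEFs, where 63.2% of all genes did. The exceptions were Fgf4, with 4 peaks in MEFs and 5 at day 5, and Spry2, with 4 at both. In the lists of equal length, only Fgf5, Fgf2, Fgfr2, Dusp6 and Etv4 had fewer peaks at day 5 than in MEFs. Fgf4 (1 in MEFs and 5 at day 5) and Fgfr1 (5 and 6) then had more. Spry2, Spry4 and Etv5 were even, each with 3 and 3. No share over all genes was at hand for the lists of equal length, and the 63.2% belongs to the full lists. From day 5 to day 10 the number of peaks grew in 5 of the 10 windows (Fgfr1, Fgfr2, Spry2, Etv4 and Etv5), where it did in 33.0% of all genes. With the GENCODE record, Fgfr2 fell from 67 to 64 peaks and 4 windows grew. The growth also rested in part on weak peaks. Among peaks with a −log10 q-value of at least 2, Spry2 (3 to 5) and Etv4 (4 to 6) still grew, and Fgf2 did (3 to 4). Fgfr1 then fell (6 to 5), and Fgfr2 (3 and 3) and Etv5 (3 and 3) were even.

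**Figure D1:**
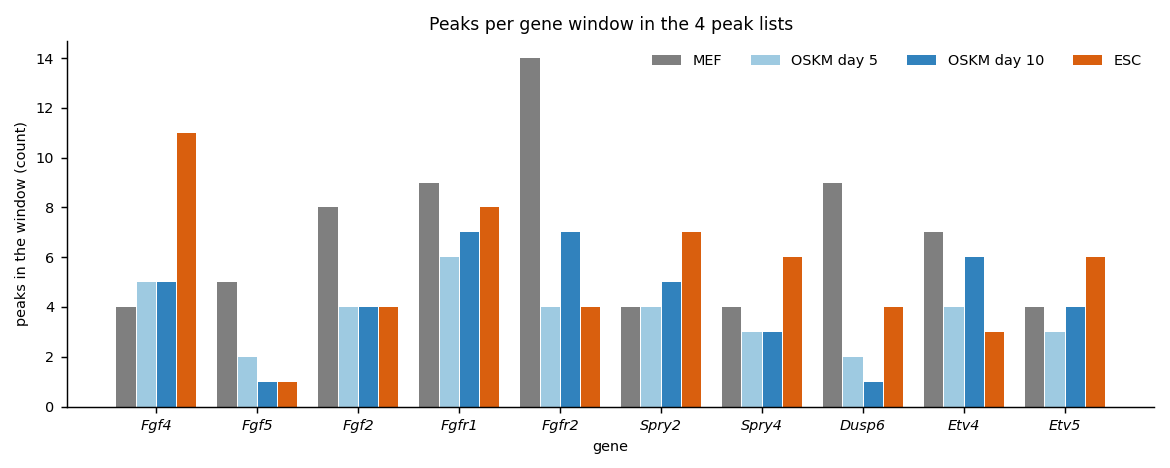
Number of peaks (y axis, count) in the window of each of the 10 genes (x axis), with 1 bar per peak list. Fgf4 has its tallest bar in ESCs (11 peaks) and Fgfr2 in MEFs (14 peaks). There is 1 list per group, so the bars have no error.

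A peak covered a start site of 9 of the 10 genes in the MEF list (60.0% of all protein-coding genes), of 8 in the day 5 list (52.1%), of 9 in the day 10 list (56.0%) and of 9 in the ESC list (55.8%). Start sites of 8 of the 10 genes were covered in all 4 lists, as were those of 46.8% of all genes. A start site here is the first base of any annotated transcript. The exceptions were Fgf4, covered in ESCs only, and Spry2, covered in the MEF and day 10 lists. Counting the RefSeq start alone gave 8, 6, 8 and 7 genes, with 6 covered in all 4 lists. By that rule Fgf2 was covered in the MEF and day 10 lists only and Fgfr2 in no list. No share over all genes was at hand for the RefSeq start alone. Counting any start gives more opportunities to genes with many annotated starts, such as Fgfr1 (18) and Fgfr2 (14).

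Peaks at most 400 bp apart, whatever their list, were joined into regions, and a region was named MEF-specific (a peak in MEFs and none in ESCs), ESC-specific (the reverse), common (a peak in both) or transient (a peak at day 5 or day 10 alone). The 10 windows held 105 regions. Of these, 43 (41.0%) were MEF-specific, 30 (28.6%) ESC-specific, 25 (23.8%) common and 7 (6.67%) transient. In the windows of all protein-coding genes, with 79990 regions, the shares were 35.1%, 27.9%, 22.9% and 14.1%. The low share of transient regions depended on the gene record and on list length. With the GENCODE record of Fgfr2, which is the kind of record used for all genes, 36 of 264 regions (13.6%) were transient, next to 37.9% MEF-specific, 26.1% ESC-specific and 22.3% common. With the RefSeq record and lists of equal length, 31 regions were MEF-specific, 23 ESC-specific, 17 common and 13 transient. At least 1 ESC-specific region lay in the windows of 8 of the 10 genes, all but Fgf5 and Etv4, where 75.8% of all genes had one. At least 1 MEF-specific region lay in those of 9 of the 10, all but Fgf4, where 75.1% of all genes had one.

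By position, 13 of the 105 regions covered a start site, and 11 of these were common. The other 2 were ESC-specific, in Fgfr1 and Dusp6, and none was MEF-specific. The remaining regions lay upstream of the gene (33), downstream of it (32), in introns (22) or in exons (5, of which 3 touched untranslated exon sequence). Of the 43 MEF-specific regions, 9 (20.9%) also held a day 5 peak and 8 (18.6%) a day 10 peak, against 15.0% and 16.5% in the windows of all genes. In 2 of these, near Fgfr2 and Etv4, the MEF peak did not overlap the OSKM peaks and was only joined to them. Of the 30 ESC-specific regions, 4 (13.3%) were found at day 5 and 7 (23.3%) at day 10, against 10.3% and 12.8%. With the GENCODE record of Fgfr2 they were 8 of 69 (11.6%) and 9 of 69 (13.0%), close to the shares over all genes. The 7 regions lay near Fgf4 (2), Spry2 (3), Fgfr1 (1) and Etv5 (1). By contrast, 20 of the 25 common regions (80.0%) had a peak at day 5 and 22 (88.0%) at day 10, against 77.5% and 81.4%. With 30 ESC-specific regions, a single region is worth 3.33 percentage points. The day 10 share of ESC-specific regions also rested in part on weak peaks. Day 10 peaks near Fgf4, Fgfr1 and Etv5 had −log10 q-values of 1.76, 1.39 and 1.60, and an ESC peak near Fgf4 had one of 1.65. Near Fgfr1 the ESC peak lay outside the window, and counting by midpoints gave 29 ESC-specific regions.

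**Figure D2:**
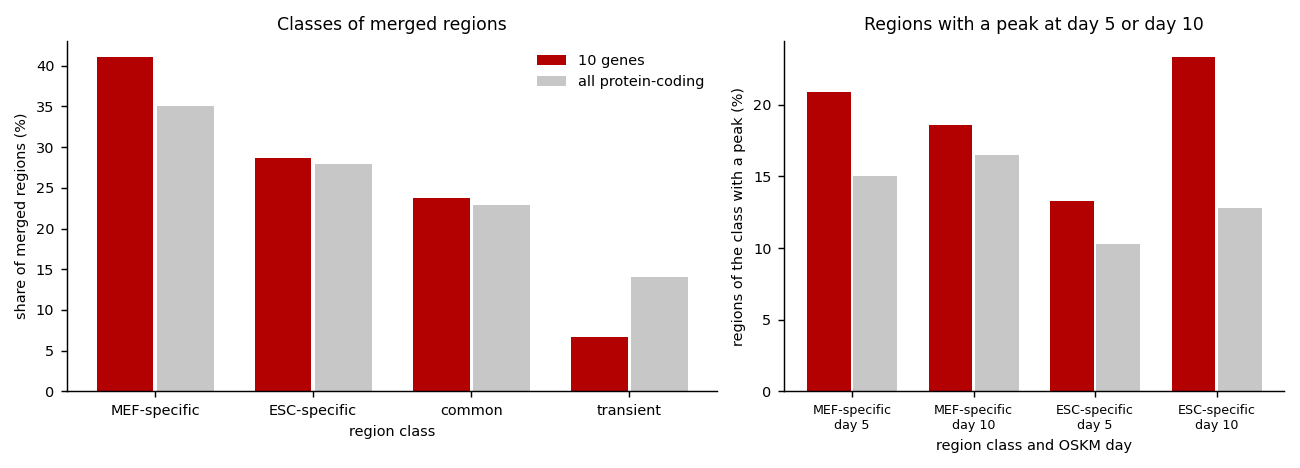
Left, the share of merged regions in each class (y axis, percent) for the windows of the 10 genes (Fgfr2 by its RefSeq record) and of all protein-coding genes. Right, the share of regions of 2 classes that were also present at an OSKM day (y axis, percent). The transient class is 6.67% of the regions near the 10 genes and 14.1% near all genes, and ESC-specific regions have a day 10 peak in 23.3% and 12.8%, whereas with the GENCODE record of Fgfr2 the values near the 10 genes are 13.6% and 13.0%.

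**Figure D3:**
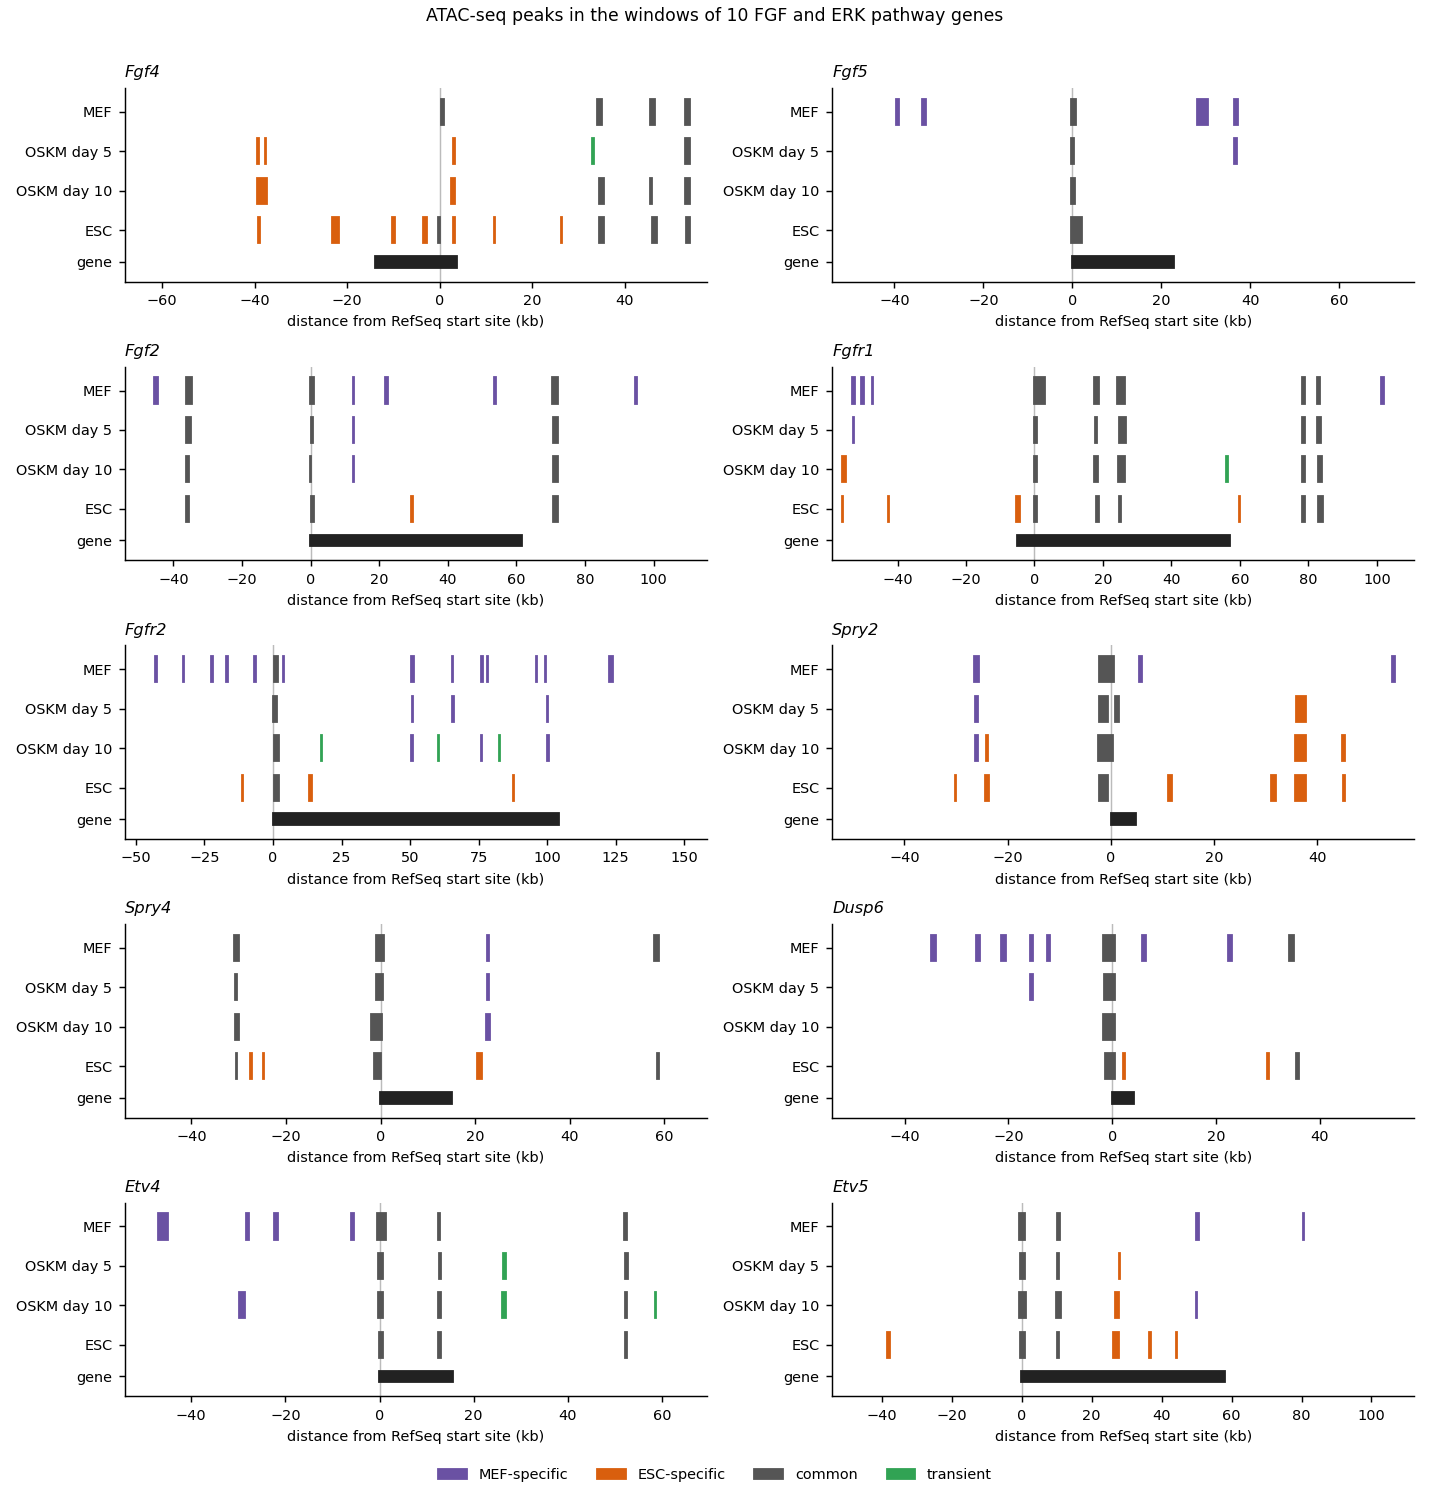
Peaks of each list (rows) in the window of each gene, drawn to scale against the distance from the RefSeq start site (x axis, kb, with transcription to the right) and coloured by the class of their region. The black bar is the gene body. For Fgfr1, an ESC peak just beyond the upstream edge of the window is drawn as well. Fgf4 and Spry2 show ESC-specific regions on both sides of the gene, whereas Fgfr2 and Dusp6 show mostly MEF-specific ones.

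Fgf4 encodes the FGF that ESCs make and respond to. The window of this gene (body chr7:144847367-144865243, forward strand) held 4, 5, 5 and 11 peaks in the MEF, day 5, day 10 and ESC lists. The difference of 7 peaks was matched or exceeded by 0.884% of protein-coding genes. None of its 12 regions was MEF-specific, 7 were ESC-specific, 4 common and 1 transient. The ESC list was thus the richest here, with day 5 and day 10 close to MEFs in number. That closeness depended on list length. When the lists were cut to equal length, the counts were 1, 5, 5 and 7, with both OSKM days nearer to ESCs.

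The start site of Fgf4 was covered in ESCs by a peak of 396 bp at chr7:144861066-144861461. It ranked 39337th of the 48486 ESC peaks by score, with a fold enrichment over background of 2.26, so it was among the weaker peaks. Ranks, scores and fold enrichments belong to replicate 1 of each group, since the intervals look like the parts of replicate 1 peaks also found in replicate 2. The closest MEF peak began 256 bp downstream of the start site, and the closest peaks at day 5 and day 10 began 2872 bp and 2506 bp downstream. Because the MEF peak lay within 400 bp, the merged region (chr7:144861066-144862322) counted as common although the peaks of both lists did not overlap.

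Those day 5 and day 10 peaks belonged to an ESC-specific region at chr7:144863892-144864791, in the untranslated part of the last exon. This stretch holds a well-studied enhancer of Fgf4 that OCT4 and SOX2 bind side by side. The peak was 476 bp wide at day 5 (fold enrichment 2.99, rank 28695), 900 bp at day 10 (2.36, rank 32785) and 514 bp in ESCs (2.99, rank 18207), and no MEF peak was found there. It was the only region of the 10 windows whose central 200 bp matched the letters searched for adjoining SOX and octamer sites, CNTTGT followed after 0 to 4 bases by ATGCNAAT on either strand. Among all 101701 regions of the 4 lists, 48 (0.0472%) held such a match, and among all 28863 ESC-specific regions 26 (0.0901%) did. The matched letters, in capitals, lie within peaks of the day 5, day 10 and ESC lists. The site is shown with its flanks at chr7:144864388-144864417 on the forward strand, as are all sequences below, from the GRCm38 (mm10) reference.
Fgf4 last exon site: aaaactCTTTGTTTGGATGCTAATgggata
A match to these letters is a description of the sequence and says nothing about binding in these cells.

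Upstream, 2 further ESC-specific regions lay within the GENCODE body of Fgf4, in an intron before the RefSeq start, at chr7:144851114-144851842 and chr7:144857701-144858583. Both had a peak in ESCs alone. The ESC-specific region with the most peak sequence was at chr7:144821853-144824060, 37.3 kb upstream, with 2 day 5 peaks, 1 day 10 peak and 1 ESC peak. The ESC peak there spanned 300 bp and the day 10 peak 2208 bp. The ESC-specific region with the highest score lay 11.7 kb downstream (chr7:144873092-144873426, fold enrichment 4.23) and had a peak in ESCs alone. The transient region, 33.0 kb downstream, had a peak at day 5 alone (chr7:144894396-144894817). Thus 2 of the 7 ESC-specific regions, the last exon and the distal upstream one, had a peak at both day 5 and day 10, and the other 5 had none at either day. Both rested in part on weak peaks. The −log10 q-value was 1.65 for the ESC peak of the distal region and 1.76 for the day 10 peak of the last exon. With a value of at least 2 required, the distal region has no ESC peak, and the day 10 count of the window falls from 5 to 2.

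Fgf4 lies in a cluster of FGF genes, and its window takes in the start sites of Fgf3, Fgf15 and LTO1. The start site of Fgf3 was covered in ESCs only, by a region at chr7:144838033-144839616. That of Fgf15 was covered at day 10 and in ESCs, and that of LTO1 in all 4 lists, at chr7:144914408-144915574. Over the 10 windows, start sites of 10 neighbouring protein-coding genes were found. Of these, 8 were covered in all 4 lists, against 46.8% of all protein-coding genes. The neighbours of Fgf2 were Cetn4, Bbs12, Nudt6 and Spata5, those of Fgfr1 were Letm2 and Nsd3, and that of Etv4 was Dhx8. The other 6 windows held none.

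Fgf5 encodes a ligand that marks the epiblast once it has left the naive state. The window around it (gene body chr5:98254184-98277030, forward strand) held 5, 2, 1 and 1 peaks in the MEF, day 5, day 10 and ESC lists. The single ESC peak was the one over the start site, in a common region at chr5:98253915-98256247 that was covered in all 4 lists. That peak measured 1094 bp in the MEF list, 709 bp in both OSKM lists and 2333 bp in the ESC list. All 4 other regions were MEF-specific, with 2 upstream and 2 downstream of the gene, and 1 of them kept a peak at day 5. The widest was 28.0 kb downstream, at chr5:98282215-98284593.

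The highest-scoring MEF-specific region near Fgf5 was the one with a day 5 peak, 36.4 kb downstream at chr5:98290543-98291364. Its fold enrichment was 5.09 in MEFs and 3.47 at day 5. The central 200 bp (chr5:98290854-98291053) are shown because they hold letters of both AP-1 (TGANTCA) and TEAD (CATTCC), factors known to act at fibroblast enhancers. Capitals mark the matches on either strand.
Fgf5 MEF-specific region: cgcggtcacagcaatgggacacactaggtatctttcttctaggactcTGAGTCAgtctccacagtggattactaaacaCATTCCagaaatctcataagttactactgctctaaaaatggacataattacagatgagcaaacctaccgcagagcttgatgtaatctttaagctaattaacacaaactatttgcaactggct

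Fgf2 encodes a ligand made by fibroblasts and used as a growth factor for them. Its window (gene body chr3:37348346-37410108, forward strand) held 8 peaks in MEFs and 4 in each of the day 5, day 10 and ESC lists. The region over its start site (chr3:37348172-37349378) was common and had a peak in all 4 lists, although the day 5 and ESC peaks began 260 bp and 31 bp past the RefSeq start and covered other annotated starts. The common region with the most peak sequence (chr3:37418969-37420625) lay downstream over the start sites of Nudt6 and Spata5. The window otherwise differed mostly in regions present in MEFs.

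Within the Fgf2 body, 3 intronic regions were MEF-specific, at chr3:37360745-37361270, chr3:37370070-37370905 and chr3:37402060-37402571, and 1 was ESC-specific, at chr3:37377875-37378421. Of the 3, the first, 12.3 kb past the start site, kept a peak at both day 5 and day 10. The fold enrichment was 4.10, 3.38 and 4.64 in the MEF, day 5 and day 10 lists. The central 200 bp (chr3:37360908-37361107) hold an AP-1 match, in capitals, and are shown as part of a MEF-specific region with peaks at both OSKM days. The match lies within the MEF and day 10 peaks but beyond the day 5 peak, which ends at position 37361036.
Fgf2 MEF-specific intron region: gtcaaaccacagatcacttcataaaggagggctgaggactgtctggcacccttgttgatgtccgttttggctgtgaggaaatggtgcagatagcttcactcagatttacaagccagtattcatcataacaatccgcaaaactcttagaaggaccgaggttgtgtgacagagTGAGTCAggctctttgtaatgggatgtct

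Fgfr1 encodes an FGF receptor expressed in both fibroblasts and ESCs. The window of this gene (body chr8:25513654-25575718, forward strand) held 9, 6, 7 and 8 peaks in the MEF, day 5, day 10 and ESC lists. With its RefSeq record the counts were 8, 5, 6 and 8, so the difference between ESCs and MEFs depended on the record. It was also 2 in favour of ESCs with 25 kb to each side. Common regions made up 5 of its 14 regions, and all 5 had a peak in all 4 lists. They included the main start site (chr8:25518589-25521921) and intronic regions 17.3 kb and 24.2 kb past it, at chr8:25536108-25537741 and chr8:25542973-25545417.

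An ESC-specific region at chr8:25513237-25514387 covered the most upstream annotated start site of Fgfr1. This region ended 4.37 kb before the RefSeq start. Its peak was in ESCs alone, with a fold enrichment of 3.07. At the far upstream end of the window, an ESC-specific region (chr8:25462465-25463706, peaks at day 10 and in ESCs) lay about as far from the start site as a MEF-specific one (chr8:25465387-25466297, peaks in MEFs and at day 5). The MEF peak of the latter ranked 1926th of 56514, and 55.1 kb and 52.5 kb separated these regions from the start site. A transient region at chr8:25574829-25575226, in untranslated exon sequence, had a day 10 peak alone.

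Fgfr2 encodes a receptor better known from epithelia and the primitive endoderm. Its window (RefSeq body chr7:130162451-130266808, reverse strand) held 14, 4, 7 and 4 peaks in the MEF, day 5, day 10 and ESC lists. The difference of 10 peaks was matched or exceeded in the same direction by 0.916% of protein-coding genes, whose median window was 117 kb against 204358 bp for Fgfr2. Of its 20 regions, 13 were MEF-specific, 3 ESC-specific, 3 transient and 1 common. The common one (chr7:130264623-130266624) had a peak in all 4 lists, which covered annotated start sites but began between 184 bp and 451 bp past the RefSeq start. Fgfr2 thus had the most peaks of the 10 genes in MEFs, in the widest of their windows. It shared with Dusp6, Fgf5 and Fgf2 a MEF-specific majority of regions.

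Inside Fgfr2, 7 regions were MEF-specific and 2 ESC-specific. The 2 ESC-specific ones, at chr7:130178996-130179419 and chr7:130252762-130253782, lay in introns and had a peak in ESCs alone. Of the MEF-specific ones, that at chr7:130215412-130216514 kept a peak at both OSKM days, that at chr7:130200769-130201637 (in part untranslated exon sequence) at day 5 and that at chr7:130190335-130190964 at day 10. The region at chr7:130166293-130167622 also held peaks of both OSKM days, but neither overlapped its MEF peak (chr7:130167130-130167622). The remaining 3, at chr7:130170633-130170986, chr7:130188275-130188762 and chr7:130262635-130263323, had a peak in MEFs alone, as did the 5 upstream of the gene and the 1 downstream. All 3 transient regions were intronic and had a peak at day 10 alone, the widest being chr7:130184003-130184514.

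The MEF-specific region 50.3 kb into the gene had the highest score of these, with a fold enrichment of 4.47, 3.45 and 3.42 in the MEF, day 5 and day 10 lists. Its central 200 bp (chr7:130215863-130216062) are shown, with an AP-1 match in capitals, for comparison with the Fgf5 and Fgf2 regions above. They are written on the forward strand, whereas the gene is on the reverse strand.
Fgfr2 MEF-specific intron region: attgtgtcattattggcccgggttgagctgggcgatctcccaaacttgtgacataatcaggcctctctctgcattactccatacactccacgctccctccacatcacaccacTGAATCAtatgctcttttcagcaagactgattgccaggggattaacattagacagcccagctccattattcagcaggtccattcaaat

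Spry2 encodes a Sprouty protein, which ERK signaling induces and which dampens signaling from the receptors. The window around it (gene body chr14:105891947-105896819, reverse strand) held 4, 4, 5 and 7 peaks in the MEF, day 5, day 10 and ESC lists. Of its 10 regions, 6 were ESC-specific, 3 MEF-specific and 1 common. The common region (chr14:105895283-105899276) joined peaks over and around the start site. Its MEF peak of 2913 bp and its day 10 peak of 2949 bp covered the start site. The closest day 5 and ESC peaks lay 549 bp and 555 bp upstream of it, and a day 5 peak also lay 758 bp downstream. The ESC-specific regions were spread on both sides of the gene, and none touched the gene body.

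Near Spry2, 1 of the 6 ESC-specific regions was present at day 5 and 3 were at day 10. The one with a peak at both days held the most peak sequence and lay 35.7 kb downstream (chr14:105858970-105861081). There the peak was 1829 bp wide at day 5, 2090 bp at day 10 and 2039 bp in ESCs, and its rank was 25911, 18351 and 6394. Over its whole 2112 bp it contained letters for the octamer, ESRRB (TCAAGGTCA), TEAD and ETS factors of the PEA3 group (CCGGAANT). All of these lay within the peaks of the 3 lists. Letters for KLF (CCNCNCCC) were found there as well, some of them in the day 10 peak alone. The shares over all regions given below cover only the central 200 bp, so none can be set beside matches in so long a stretch.

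About 24 kb upstream of Spry2, 2 strong regions with opposite patterns lay close together. The ESC-specific region (chr14:105920391-105921186, 23.6 kb upstream) ranked 2135th of 48486 peaks in ESCs, with a fold enrichment of 5.29, and had a peak at day 10 (2.85) but none at day 5. The MEF-specific region (chr14:105922376-105923242, 25.6 kb upstream) ranked 1606th of 56514 in MEFs, with a fold enrichment of 5.17, and had a peak at day 5 (4.82) and at day 10 (3.30). Day 10 was thus the only list with a peak in both. The central 200 bp of both (chr14:105920689-105920888 and chr14:105922709-105922908) are shown because these were the highest-scoring regions of their classes among the 10 genes. Neither holds any of the letters searched, although the MEF-specific region holds AP-1 letters outside this stretch, at chr14:105922952-105922958 and chr14:105922971-105922977.
Spry2 ESC-specific region: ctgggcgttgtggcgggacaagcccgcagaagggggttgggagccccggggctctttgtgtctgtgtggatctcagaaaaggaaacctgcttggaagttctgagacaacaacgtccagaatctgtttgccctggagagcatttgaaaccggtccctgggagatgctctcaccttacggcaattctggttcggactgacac
Spry2 MEF-specific region: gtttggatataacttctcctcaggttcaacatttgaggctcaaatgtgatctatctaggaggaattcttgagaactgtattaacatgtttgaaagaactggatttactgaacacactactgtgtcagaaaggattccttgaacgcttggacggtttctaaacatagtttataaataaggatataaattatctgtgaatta

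Spry4, on chromosome 18, encodes another Sprouty inhibitor. Its window held 4, 3, 3 and 6 peaks in the MEF, day 5, day 10 and ESC lists. Its start site was covered in all 4 lists. Of the 7 regions, 3 were common, 3 ESC-specific and 1 MEF-specific. The 3 ESC-specific regions, 20.4 kb downstream and 24.7 kb and 27.3 kb upstream, had a peak in ESCs alone, and their ranks of 38035, 45082 and 32395 of 48486 placed them in the lower part of the list. The MEF-specific region, 22.4 kb downstream, had a peak at both OSKM days and its highest rank at day 10 (2941 of 35226, against 40285 of 56514 in MEFs). With only peaks of a −log10 q-value of at least 2, the MEF and ESC lists were even for Spry4 (4 and 4), so the difference rested on weak ESC peaks.

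Dusp6 encodes a phosphatase that inactivates ERK and is widely used as a readout of ERK activity. Its window (gene body chr10:99263231-99267489, forward strand) held 9, 2, 1 and 4 peaks in the MEF, day 5, day 10 and ESC lists. The start site was covered in all 4 lists by a region at chr10:99261456-99263835, and at day 10 this was the only peak of the window. Its peak measured between 1976 bp (ESCs) and 2313 bp (MEFs). Away from the start site 7 regions were MEF-specific, 5 of them upstream and 2 downstream. Of these 7, 1 had a peak at day 5 (chr10:99247330-99247942, 15.3 kb upstream) and none had one at day 10.

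An ESC-specific region inside Dusp6 (chr10:99265224-99265721) covered a further annotated start site, and its interval came from the same replicate 1 peak as the start site interval, so the 4 ESC intervals represent 3 replicate 1 peaks. The other ESC-specific region, 29.9 kb downstream (chr10:99293093-99293526), ranked 6864th in ESCs. A common region 34.0 kb downstream (chr10:99297238-99299225) joined a MEF and an ESC peak that lay within 400 bp of each other without overlapping. With lists of equal length Dusp6 held 5 peaks in MEFs and 4 in ESCs, against 2 at day 5 and 1 at day 10. The low number at both OSKM days therefore remained, while the difference between MEFs and ESCs became 1 peak.

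Etv4 encodes a PEA3-group ETS transcription factor that FGF signaling induces. The window of this gene (body chr11:101769742-101785371, reverse strand) held 7, 4, 6 and 3 peaks in the MEF, day 5, day 10 and ESC lists. The start site (chr11:101783868-101785777) lay in a common region with a peak in all 4 lists, as did that of Dhx8. An inner annotated start lay in a further such region (chr11:101772171-101772891), whose near edge was 12.4 kb into the gene. There the day 5 peak alone covered the inner start itself. No region was ESC-specific. The 4 MEF-specific regions all lay upstream of the gene, the one with the most peak sequence 44.9 kb away (chr11:101830195-101832348), and 1 of them joined a MEF peak to a day 10 peak. A transient region 25.9 kb downstream (chr11:101758422-101759394) had a peak at day 5 and at day 10.

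Etv5 encodes the close relative of Etv4 and acts in ESCs. The window around it (gene body chr16:22381309-22439719, reverse strand) held 4, 3, 4 and 6 peaks in the MEF, day 5, day 10 and ESC lists. The region over its start site (chr16:22438401-22440394) and an intronic region 9.92 kb into the gene (chr16:22428325-22429654) had a peak in all 4 lists. The intronic one was among the strongest in ESCs, with rank 1331 of 48486 and a fold enrichment of 5.39, against 4.26 in MEFs, 4.86 at day 5 and 3.67 at day 10. Etv4 and Etv5 thus shared open start sites in all lists and had differences of opposite sign between ESCs and MEFs.

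Inside Etv5, 3 regions were ESC-specific. The largest, 26.2 kb into the gene at chr16:22411570-22413408, overlapped an exon and had a peak of 258 bp at day 5, 1087 bp at day 10 and 1787 bp in ESCs. The other 2, at chr16:22395174-22395424 and chr16:22402699-22403138, had a peak in ESCs alone, and 72.7% of the second was repeat sequence. So was 79.8% of the fourth ESC-specific region, 37.6 kb upstream. The single MEF-specific region in the gene (chr16:22388953-22389865) had a day 10 peak as well.

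The central 200 bp of every region were searched on both strands for the letters of 7 motifs. AP-1 letters were found in 12 of the 43 MEF-specific regions (27.9%) and 2 of the 30 ESC-specific ones (6.67%), against 29.4% and 6.45% of all such regions of the 4 lists. KLF letters (CCNCNCCC) were found in 13 of the 25 common regions (52.0%), against 42.2%, and in 5 ESC-specific ones (16.7%), against 21.4%. TEAD letters were found in 9 of the MEF-specific regions (20.9%), against 18.1%, and in 6 of the 30 ESC-specific ones, against 16.4%. In common regions TEAD letters were found in 1 of 25 (4.00%), against 9.86%. In transient regions KLF letters were found in 3 of 7 (42.9%), against 19.8%. A single region is worth several percentage points in each of these shares. Octamer letters (ATGCNAAT) were found in 4 of all 105 regions, PEA3-group ETS letters in 3 and ESRRB letters in none, against 4.14%, 1.20% and 0.682% of all 101701 regions.

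**Figure D4:**
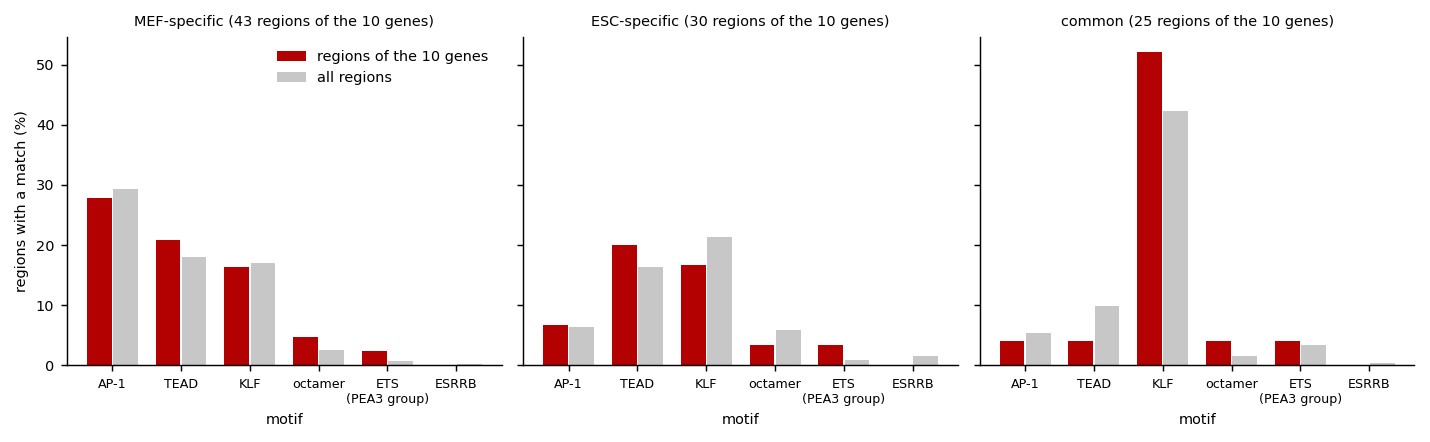
Share of regions (y axis, percent) whose central 200 bp hold the letters of each of 6 motifs (x axis), for MEF-specific, ESC-specific and common regions of the 10 genes and of the whole series. Near the 10 genes, AP-1 is found in 27.9% of regions of the MEF-specific class and 6.67% of the ESC-specific class, and KLF in 52.0% of common ones.

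For the rest of the pathway, 53 further genes were counted by the same rule. Their windows held 349, 214, 259 and 328 peaks in the MEF, day 5, day 10 and ESC lists. The ESC list held more peaks than the MEF list for 25 of them (47.2%), against 35.6% of all protein-coding genes. It held fewer for 25 (47.2%), against 42.2%, and as many for 3. Start sites of 39 (73.6%) were covered in all 4 lists, against 46.8% of all protein-coding genes. Start sites of all 8 adaptor genes were covered in every list. None of the 9 other ligand genes had a start site covered in all 4 lists, and 7 had more peaks in ESCs than in MEFs and 2 fewer. Of the 11 target genes, such as Fos and Egr1, 2 had more, 7 fewer and 2 as many. The 10 other feedback inhibitor genes were split evenly (5 and 5), as were the adaptors (4 and 4), and of the 4 receptors and co-receptors 1 had more and 2 fewer.

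The largest differences in favour of ESCs were those of Fgf3 (1, 4, 3 and 9 peaks in MEFs, day 5, day 10 and ESCs), Spred2, an inhibitor of RAF activation (6, 5, 10 and 13), and Fgf15 (7, 4, 5 and 12) with Klb, a co-receptor (4, 2, 2 and 9). The windows of Fgf3 and Fgf15 overlap that of Fgf4, so the same peaks were counted in them. In favour of MEFs they were those of Dusp7, a phosphatase related to Dusp6 (10, 5, 6 and 3), Fgf1 (11, 1, 7 and 4) and Elk3, an ETS factor (12, 5, 8 and 6). Spred2 was the only one of these with more peaks at day 10 than in MEFs apart from Fgf3.

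**Figure D5:**
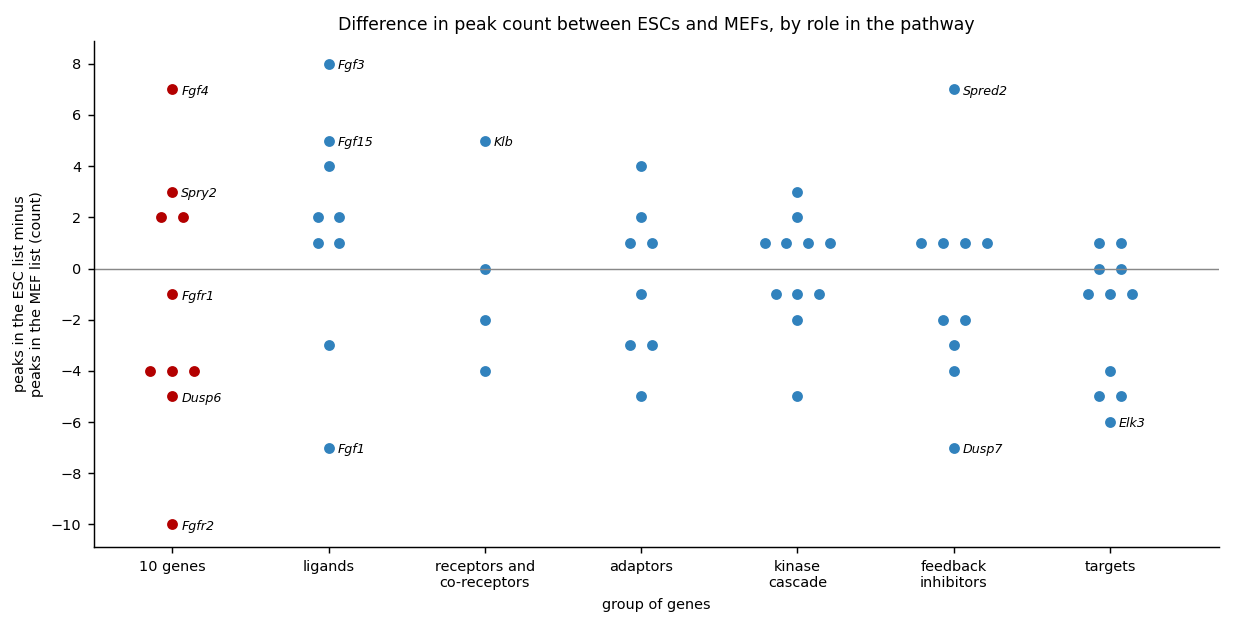
Number of peaks in the ESC list minus that in the MEF list (y axis, count) for each of the 10 genes and each of the 53 other pathway genes, grouped by role (x axis), with 1 point per gene. The 10 genes range from -10 (Fgfr2) to 7 (Fgf4), and the other ligand genes lie mostly above 0.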

How the data were processed

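Accessibility was measured by ATAC-seq in 8 libraries, grouped by sample title. According to the labels and the methods, the authors aligned reads to mm10 with bowtie2 (version 2.2.0 in the submitters' processing notes), kept uniquely mapped reads above a mapping quality (whose threshold differs between labels and methods) and removed mitochondrial reads. The peak caller is not given in the sources used here. The authors deposited 1 interval list per group, giving every peak a score, a ratio to background (its fold enrichment), a −log10 p-value (not used) and a −log10 q-value, and these served to rank, filter and describe peaks within a list. Shifts of read ends for the transposase are not stated and would move borders by a few bp. No column belonged to other series (0 columns). The depth is unknown.

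Peaks overlapping a window by at least 1 bp were counted (Python 3.11.15, numpy 2.4.6, pysam 0.24.0, matplotlib 3.10.9). Gene records and start sites came from GENCODE mouse release 21 and RefSeq, and all sequences from the RefSeq copy of GRCm38. The planned rule used the GENCODE record for all genes. The RefSeq record of Fgfr2 was added after its GENCODE record had been seen. Repeats were the soft-masked bases of the reference. The counting code was tested on simulated data. All 10 genes were named, with regions over start sites, regions inside genes that differ between MEFs and ESCs, and the region of each class with most peak sequence in each window; of the other pathway genes, those with the 3 largest and 3 smallest differences, ties included. The 10 genes, the other 54 pathway genes and the markers were chosen with earlier results of these data known. Spry3 lies on an unplaced scaffold and was not counted. The kinase cascade is not reported on its own here. Windows of 25 kb and 100 kb, peak midpoints, a −log10 q-value of at least 2, lists of equal length and other merging rules were tried.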

Additional observations from a re-analysis of the deposited data

How the results depend on the processing

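Of 80 alternative values, 61 stayed within a factor of 1.5 of the reported count and 19 moved further, and none of these counts has a sign that could reverse. With GENCODE records for all 10 genes, the windows held 159, 100, 100 and 127 peaks in MEFs, day 5, day 10 and ESCs, and 100 MEF-specific, 69 ESC-specific, 59 common and 36 transient regions. With lists of equal length these became 103 peaks in MEFs, 64 MEF-specific and 39 common regions. This setting shortened both the MEF and the ESC list, and the part of each was not tested. With Fgfr2 by its RefSeq record, an alternative chosen after seeing the data and used above, the peaks were 68, 37, 43 and 54 and the regions 43, 30, 25 and 7. With RefSeq records for all 10 genes they were 67, 36, 42 and 54 and 42, 29, 25 and 7. Most of the drop comes from the shorter Fgfr2 window. On the windows with the RefSeq record of Fgfr2, lists of equal length gave 48, 36, 43 and 39 peaks, so that the order of the lists changed, and raised the transient regions from 7 to 13. Between MEFs and ESCs, Fgfr1 and Spry4 changed direction or became even under at least 1 alternative, and the other 8 genes did not under any of the 5 alternatives run per gene. No paired analysis was possible because each group has 1 list, and leaving out a replicate was not run for the same reason. Without read counts, a missing peak in a list cannot be told apart from too few reads.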
